A study of Mus musculus with 2 samples.

Results

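MOS and the genes of maturation-promoting factor drive the meiotic divisions of the oocyte, and 9 of them were followed here: MOS, MAP2K1, CDK1, CCNB1, CCNB2, WEE1, WEE2, CDC25B and CDC25C. They were chosen by name for their known roles, and all 9 were present among the 38817 genes of the expression table. The study's title concerns spermidine, a natural polyamine, and the meiotic maturation of pig oocytes, the female germ cells. RNA sequencing was done on pools of 100 matured oocytes, with 1 control library and 1 library labelled SPE that could be matched to the table, in which the treated column is named SPD. SPE was read as spermidine from the title. The labels gave neither its dose nor its time, and for both samples they named the mouse and the genotype WT ICR, whereas the table placed its genes on pig chromosomes. The values were therefore read as those of pig gene models.

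Maturation-promoting factor is a complex of the kinase CDK1 with a B-type cyclin. In the arrested oocyte CDK1 is held inactive by phosphates that kinases of the WEE family add, and phosphatases of the CDC25 family remove them when meiosis resumes. MOS is a kinase of germ cells that acts through MAP2K1 on the MAP kinases and, as known from the mouse and the frog, keeps the mature egg arrested until fertilization. The mRNAs of MOS and the B cyclins are stored in the oocyte and recruited to ribosomes during maturation, so that their mRNA level is not a measure of their protein.

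Values are FPKM, fragments scaled to transcript length and to the mapped total, which is meant to let levels of different genes be compared within a library. Such comparisons rest on an annotation that the sources used here do not name. With 1 library per group matched to a labelled sample there was no replicate error and no test, and every difference below is one between 2 libraries. The table also held the columns Con2 and SPD2, which by their names may be second replicates. They matched no labelled sample and were not used, so no difference was checked in them. The number of fragments behind each value is unknown. The 2 FPKM columns summed to 249340 in control oocytes and 251829 with SPE. The mitochondrial chromosome held 62.7% of this sum in control oocytes and 65.7% with SPE. Of 15 oocyte markers, 10 averaged 1 FPKM or more, with 5 higher and 5 lower with SPE. OOSP2, an oocyte-secreted protein gene and the highest of them, was at 904 FPKM in control oocytes and 730 FPKM with SPE. GDF9, a growth factor gene of the oocyte, was the 1 marker of the 10 past 1.5-fold, at 78.1 and 145 FPKM (log2 ratio 0.89, computed throughout as log2((SPE + 1) / (control + 1))). The other 5 markers, DDX4, NOBOX, FIGLA, KIT and NLRP5, were below 1 FPKM, and DDX4 was at 0.0069 FPKM in control oocytes and listed at 0 with SPE. The 17 markers of granulosa and cumulus cells, the somatic cells around the oocyte, summed to 29.9 FPKM in control oocytes and 12.7 FPKM with SPE. INHBB held the largest part of that difference, and INHBA had the highest mean of the 17 (9.87 and 5.55 FPKM). INHBB, at 10.8 FPKM in control oocytes and 1.28 FPKM with SPE over a locus of 349 bases, and HSD3B1, at 1.90 and 0.111 FPKM, were 2-fold or more lower. Both were named after their values were seen, as were GDF9 and the markers listed at or near 0. All 4 of the 17 that reached a mean of 1 FPKM were lower with SPE, GATA4 by little (4.13 and 3.70 FPKM). HSD3B1 reached that mean only through its control value, so it could only count as lower. Of the 17, 4 were listed at 0 in both libraries (AMH, NR5A1, AMHR2 and TNFAIP6). Among the rest, all of low level, CYP19A1, FOXL2 and PTGS2 were higher with SPE, and FSHR, CYP11A1, STAR, INHA, PTX3 and FST lower. These genes were also named after their values were seen. The part of this difference in granulosa and cumulus markers in the results below was not tested. CD68 (0.395 FPKM in control oocytes and listed at 0 with SPE) was the highest blood and immune marker, and PECAM1 (0.352 and 0.314 FPKM) the highest of theca, stroma and endothelium. In RNA from pooled cells, fewer cells of a type and less RNA per cell cannot be told apart.

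The 9 genes spanned a very wide range of levels, and their upper order was the same in both libraries. MOS was highest, followed by WEE2, CCNB1, CDC25C, MAP2K1 and CCNB2, which were the 6 genes averaging 1 FPKM or more. CDC25B, CDK1 and WEE1 lay below 1 FPKM in both libraries, and their order among themselves differed between the libraries. The table gave 5 of the 9 (MAP2K1, CDK1, WEE2, CDC25B and CDC25C) a locus shared with another gene, where the division of fragments is not given. None of the 6 differed by 2-fold between the libraries, as 4.99% of all genes at that level did, and those of at least 10 FPKM were the closest to equal.

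**Figure D1:**
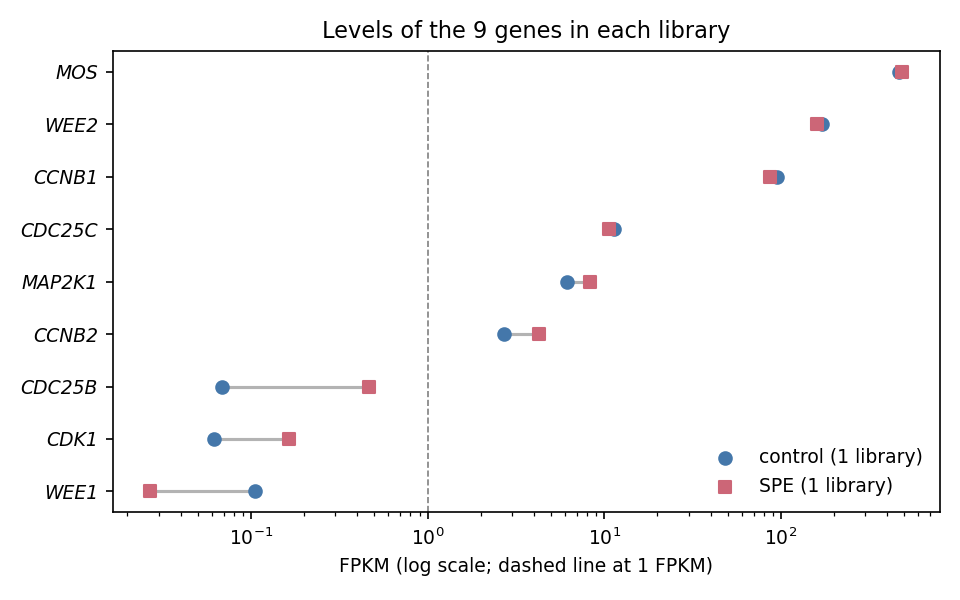
FPKM of each of the 9 genes on a log axis, with the control library as a circle, the SPE library as a square and a dashed line at 1 FPKM. MOS, WEE2, CCNB1 and CDC25C nearly coincide in both libraries, whereas the 3 genes below 1 FPKM lie far apart on this axis at levels between 0.027 and 0.464 FPKM.

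MOS, the kinase at the head of the cascade, was at 469 FPKM in control oocytes and 486 FPKM with SPE. These levels made it the 20th highest gene in control oocytes and the 18th with SPE once mitochondrial and ribosomal RNA genes were set aside. Its share of the summed FPKM of those other genes was 0.579% in control oocytes and 0.624% with SPE. The SPE value was 1.04 times the control value (log2 ratio 0.05). MOS lies on chromosome 4 at positions 82657132 to 82658806 of the table, a locus of 1675 bases that no other listed gene overlapped. The sources used here name no genome build for these positions.

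The established genes with levels nearest to MOS over both libraries, by Euclidean distance in log2(FPKM + 1), were PAPSS1, FTL, H3F3B, DDA1 and DSTN. PAPSS1, an enzyme of sulfate activation, was at 467 FPKM in both libraries over a locus of only 725 bases, at a distance of 0.059. FTL, the ferritin light chain gene, was at 499 FPKM in control oocytes and 463 FPKM with SPE (distance 0.11), and H3F3B, which encodes the variant histone H3.3, at 457 and 415 FPKM (distance 0.23). DDA1, over a locus of 973 bases, followed at a distance of 0.25 and DSTN, an actin-depolymerizing factor gene, at 0.31. With 2 libraries this likeness is one of level alone.

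MAP2K1 encodes the kinase that MOS phosphorylates and that in turn activates the MAP kinases. It was at 6.13 FPKM in control oocytes and 8.28 FPKM with SPE, 1.35 times as high (log2 ratio 0.38). MOS thus stood 76.4 times as high as MAP2K1 in control oocytes and 58.7 times as high with SPE, per transcript length. The locus of MAP2K1 on chromosome 1 (182181550 to 182196671) is given identically for SNAPC5, a subunit gene of the complex that transcribes small nuclear RNAs. SNAPC5 was at 77.8 FPKM in control oocytes and 58.6 FPKM with SPE, the opposite direction. How fragments were divided between the 2 genes is not given, and whether that bears on the difference in MAP2K1 was not tested.

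CDK1, the catalytic subunit of maturation-promoting factor, was among the low genes of the table. It was at 0.0616 FPKM in control oocytes and 0.164 FPKM with SPE, on chromosome 14 (69255561 to 69277262). Such low values should be read with care, because genes that cells use generally were also listed at 0: of 74 ribosomal protein genes, 28 were at 0 in the control, 20 with SPE and 17 in both. The provisional gene LOC100152879 has the same locus as CDK1 and was listed at 0 in both libraries.

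The cyclin that pairs with CDK1 was abundant. CCNB1, cyclin B1, was at 95.0 FPKM in control oocytes and 87.2 FPKM with SPE (log2 ratio -0.12), on chromosome 16 (51155615 to 51165760) with no overlapping gene. CCNB2, cyclin B2, which can take over from cyclin B1 in mouse oocytes, was at 2.70 FPKM in control oocytes and 4.28 FPKM with SPE, on chromosome 1 (124906568 to 124942517). The SPE value of CCNB2 was 1.59 times the control value (log2 ratio 0.51), the largest difference among the 6 genes of at least 1 FPKM. CCNB1 and CCNB2 together came to 97.7 FPKM in control oocytes and 91.5 FPKM with SPE. CCNB1 made up 97.2% of that sum in control oocytes and 95.3% with SPE.

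The summed FPKM of WEE1 and WEE2 came almost wholly from the oocyte form. WEE2, the WEE kinase of oocytes that holds CDK1 inactive, was at 171 FPKM in control oocytes and 161 FPKM with SPE (log2 ratio -0.09), 0.942 times the control value. WEE1, the form of dividing somatic cells, was at 0.105 FPKM in control oocytes and 0.0269 FPKM with SPE, on chromosome 2 (53229796 to 53243875). WEE2 thus held 99.94% of the summed WEE level in control oocytes and 99.98% with SPE. These shares rest on low WEE1 values, which call for the same care as those of CDK1. The locus of WEE2 on chromosome 18 (8463322 to 8492643) is shared with the provisional gene LOC100513188, at 37.2 FPKM in control oocytes and 37.5 FPKM with SPE. WEE2 was 1.80 times as high as CCNB1 in control oocytes and 1.85 times as high with SPE. This compares mRNA levels and not the kinase with its target complex.

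The activating phosphatases were led by CDC25C. CDC25C was at 11.4 FPKM in control oocytes and 10.6 FPKM with SPE (log2 ratio -0.10). CDC25B, the phosphatase that mouse oocytes need to resume meiosis, was at 0.0688 FPKM in control oocytes and 0.464 FPKM with SPE. CDC25C therefore made up 99.4% of the summed CDC25B and CDC25C level in control oocytes and 95.8% with SPE. These shares rest on low CDC25B values, to be read with the same care. The plain ratio of CDC25B was 6.74, but on the log2 scale with 1 FPKM added the difference was 0.45, and both values lay under the minimum set for comparison. CDC25B shares its locus on chromosome 17 (36244262 to 36264712) with CENPB, a centromere protein gene at 0.705 and 0.722 FPKM, and CDC25C shares its own on chromosome 2 (145985978 to 146042573) with FAM53C, at 3.10 and 3.14 FPKM, and a provisional gene listed at 0.

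Set against the table as a whole, the 6 genes lay among the many that differed little. Of 4391 genes averaging 1 FPKM or more, 219 (4.99%) were at or beyond 2-fold in either direction, and 0 of the 6 were. At 1.5-fold the table held 580 such genes (13.2%) and the 6 again held 0. Of the 1097 genes of at least 10 FPKM, 80 (7.29%) were at or beyond 1.5-fold, and MOS, WEE2, CCNB1 and CDC25C were not among them. With 6 genes, a count of 0 is near this background. Without a pseudocount CCNB2 passed 1.5-fold, as did 776 of 3221 genes (24.1%) between 1 and 10 FPKM that were above 0 in both libraries.

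The 6 genes split evenly, with MOS, MAP2K1 and CCNB2 higher with SPE and WEE2, CCNB1 and CDC25C lower. Their median log2 ratio was -0.017, against -0.036 over all 4391 genes, and it became 0.039 when the libraries were scaled to genes outside the mitochondrial and ribosomal RNA genes and 0.020 when centred on all genes analysed. For genes of 100 FPKM or more, the 10th and 90th percentiles of the log2 ratio were -0.30 and 0.15, and MOS and WEE2 lay between them. CCNB1 lay within the corresponding range of -0.32 to 0.25 for genes from 30 to 100 FPKM, and CDC25C within that of -0.36 to 0.38 for genes from 10 to 30 FPKM. For genes from 3 to 10 FPKM the range was -0.42 to 0.49. MAP2K1 was inside it and CCNB2 just above its upper end, a place that 10% of those genes hold by construction. These are spreads across genes, not the error of a single gene.

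**Figure D2:**
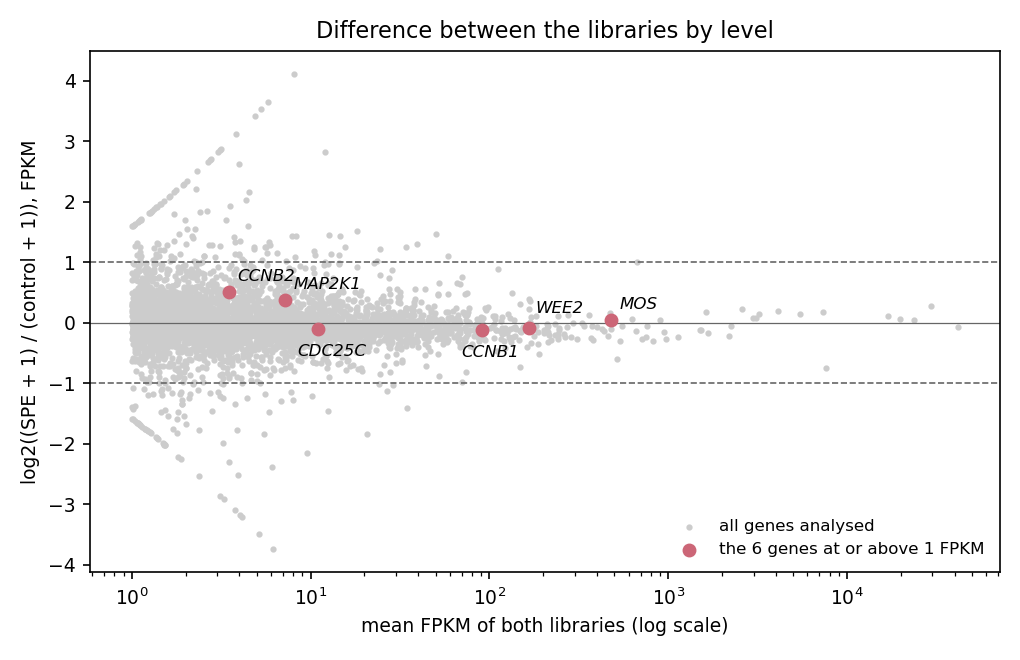
The log2 ratio of the SPE to the control library, with 1 FPKM added, against the mean FPKM of both libraries on a log axis, for all 4391 genes analysed (grey) and the 6 genes of at least 1 FPKM (red). Dashed lines mark 2-fold, and the grey points widen to the left while the 6 red points stay between -0.12 and 0.51.

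Other genes of the same pathways were followed in 7 lists by role with 72 genes, of which 64 were found in the table, 28 of them averaging 1 FPKM or more. With 1 FPKM added, none of these 28 was at or beyond 2-fold, against 4.99% of all genes analysed. Of the 28, 11 were higher with SPE and 17 lower, against 1957 higher and 2434 lower of the 4391, and the median log2 ratio was -0.04 in both. At 1.5-fold 2 of the 28 passed, FBXO5 and YWHAQ, both higher, against 13.2% of all genes analysed. YWHAQ, at 0.684 FPKM in control oocytes and 1.70 FPKM with SPE, reached the minimum mean only through its SPE value. It could therefore only count as higher. By the plain ratio of SPE to control, FBXO5 (2.19) and YWHAQ (2.48) passed 2-fold. DUSP1 (0.630) and CDC20 (0.662) also passed 1.5-fold by that ratio, on the lower side. With a pseudocount of 0.1 FPKM, 2 of the 28 were at or beyond 2-fold, as were 406 of the 4391.

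In the MAP kinase cascade below MOS, 13 genes were found and 12 had a mean under 1 FPKM. MAPK3, a MAP kinase that MAP2K1 activates, was listed at 0 in both libraries over an unplaced locus of 982 bases, and was singled out after its values were seen. The one gene of the list above the minimum was DUSP1, a phosphatase that inactivates MAP kinases, at 7.26 FPKM in control oocytes and 4.57 FPKM with SPE (log2 ratio -0.57).

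Among CDK and cyclin partners, 4 of 8 genes reached 1 FPKM. CKS1B, a small subunit that binds cyclin-dependent kinases, was the highest gene of all 7 lists, at 343 FPKM in control oocytes and 330 FPKM with SPE. Its relative CKS2 was at 4.05 and 5.86 FPKM (log2 ratio 0.44), over a locus shared with a provisional gene. CCNA2, cyclin A2, was at 37.0 FPKM in control oocytes and 29.8 FPKM with SPE (log2 ratio -0.30). CDK2 was listed at 0 in control oocytes and at 1.20 FPKM with SPE, a mean below the minimum, and was named after its values were seen. Of the 3 genes of the CDK-activating kinase, CCNH, its cyclin, was at 4.12 and 4.81 FPKM. CDK7, its kinase, was at 0.0287 and 0.0147 FPKM, and MNAT1, its assembly factor, was listed at 0 in both; these genes were also named after their values were seen.

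Of the genes that control CDK1 phosphorylation beside the WEE and CDC25 genes above, 9 were found, 6 reached 1 FPKM, and 3 of these were higher and 3 lower with SPE. YWHAH, a 14-3-3 protein gene of the family that binds phosphorylated CDC25, was the highest at 43.3 FPKM in control oocytes and 37.8 FPKM with SPE. YWHAQ, of the same family, was at 0.684 and 1.70 FPKM (log2 ratio 0.68, plain ratio 2.48) over a locus shared with ADAM17 and ITGB1BP1. It reached the minimum mean only through its SPE value. PKMYT1, the third inhibitory kinase of CDK1 and named after its values were seen, was at 2.09 FPKM in control oocytes and 2.33 FPKM with SPE.

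The Greatwall and PP2A list covers the phosphatase that opposes CDK1 and the kinase pathway that restrains it. Of its 10 genes found, 6 reached 1 FPKM, with 1 higher and 5 lower with SPE and a median log2 ratio of -0.09. PPP2R1B, a scaffold subunit of PP2A, was at 48.9 FPKM in control oocytes and 38.1 FPKM with SPE (log2 ratio -0.35). ARPP19, a PP2A inhibitor that Greatwall activates, was at 1.99 and 2.50 FPKM (log2 ratio 0.23), over a locus shared with a provisional gene. MASTL, the Greatwall kinase itself and named after its values were seen, was at 29.97 FPKM in control oocytes and 27.6 FPKM with SPE.

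Cyclin B is destroyed through the anaphase-promoting complex, and 5 genes of that step and its brakes were found, 4 of them at 1 FPKM or more. FBXO43, also known as EMI2, the inhibitor that holds the egg at metaphase II, was the highest at 31.2 FPKM in control oocytes and 35.9 FPKM with SPE (log2 ratio 0.19). FBXO5, its relative EMI1, was at 3.56 and 7.80 FPKM, with a log2 ratio of 0.95 and a plain ratio of 2.19. CDC20, an activator of the complex, was at 11.0 FPKM in control oocytes and 7.29 FPKM with SPE (log2 ratio -0.54).

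Genes that govern the translation of MOS and cyclin B mRNA had log2 ratios between -0.20 and 0.02 in the 6 of 16 found genes that reached 1 FPKM. EIF4ENIF1, a repressor that binds the cap-binding protein, was at 19.96 FPKM in control oocytes and 19.68 FPKM with SPE. DAZL, an RNA-binding protein of germ cells, was at 2.13 and 1.72 FPKM (log2 ratio -0.20), and CPSF4, a subunit of the polyadenylation complex, at 2.97 and 3.02 FPKM (log2 ratio 0.02). The loci of DAZL and CPSF4 are shared with other genes.

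**Figure D3:**
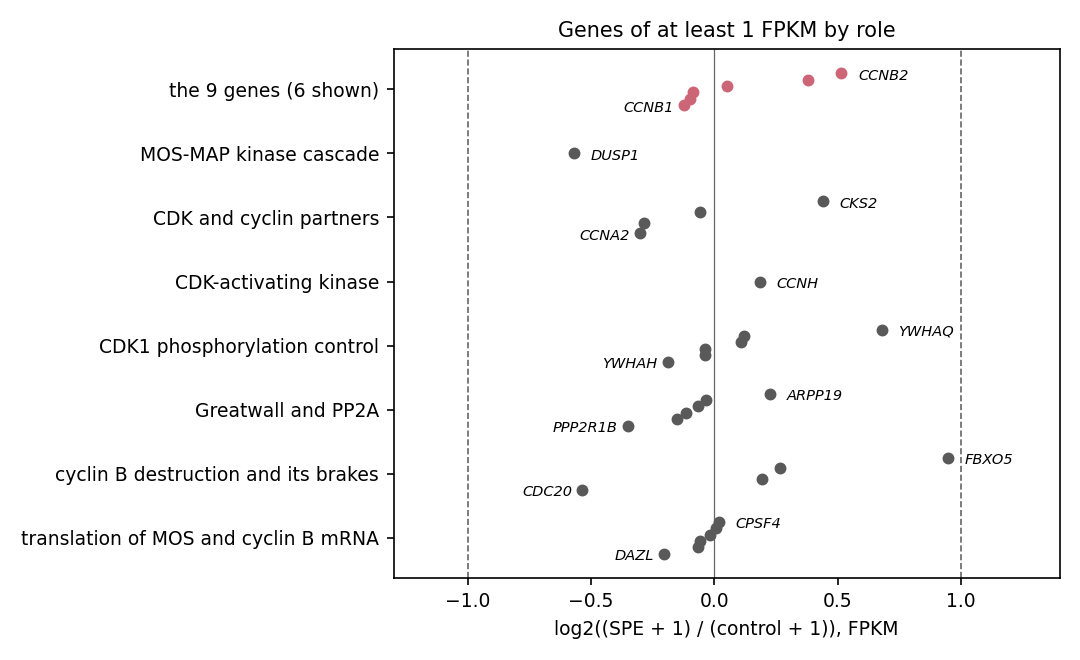
The log2 ratio of the SPE to the control library, with 1 FPKM added, for each gene averaging 1 FPKM or more, in rows by role and with the lowest and highest gene of each row named. Of the 9 genes followed, 6 are shown in red. Every point lies between the dashed lines at 2-fold, with FBXO5 at 0.95 nearest to them.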

How the data were processed

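Libraries from pools of 100 oocytes were sequenced on an Illumina instrument, per the labels' protocols. The deposited values are FPKM, which the authors scaled to transcript length and mapped fragments, per the file's name. Bowtie2 2.2.5, RSEM and the mouse build mm9 are named in the submitters' processing notes, whereas the table carries accessions of pig chromosomes. Which program and annotation made it, the sources used here do not say. Start positions were raised by 1, as the loci were read as counting from 0.

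The column Con1 was taken as the control and SPD1 as the SPE sample, by name and number. 2 further columns, Con2 and SPD2, may by their names be second replicates of these groups, but they matched no labelled sample and were not used, so the lack of replicates is one of this matching. The absolute depth is unknown. Of 5128 genes between 0.005 and 0.3 FPKM in both libraries, 792 (15.4%) had an SPE to control ratio equal, to 0.001 of its size, to the commonest ratio (1.025) or that ratio times 1:2, 2:1, 2:3, 3:2, 1:3 or 3:1, too few to recover whole fragments.

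For log2 ratios 1 FPKM was added to each value, so that differences of low genes are understated. Genes averaging 1 FPKM or more were compared, with 2-fold as the size rule. Since FPKM is relative, the values of all genes move when a few abundant ones change. The text names all 9 genes, the highest gene and the genes with the largest positive and most negative ratio in each role list, the highest gene of each marker list, and the 5 genes nearest to MOS. The genes and lists were chosen with earlier results of these data known. Alternatives covered the pseudocount, the filter, the scaling, the centring and the fold. The calculation was tested on simulated data with little noise and known changes larger than 2-fold. That checks the arithmetic only and not the calls in these libraries. Python 3.11.15, pandas 2.3.3, numpy 2.4.6 and matplotlib 3.10.9 were used.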

Additional observations from a re-analysis of the deposited data

How the results depend on the processing

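No paired analysis was possible because each group had 1 matched library. None of the 6 genes of at least 1 FPKM was beyond 2-fold under any of the 6 alternatives run for that count. Each of the 9 genes kept the sign of its log2 ratio under the 5 alternatives of pseudocount, scaling and centring. A pseudocount cannot change a sign, and the TPM scale hardly could, as the FPKM sums were 249340 and 251829. The other scaling and the centring raised the ratios of all 9 genes by small amounts. WEE2, the negative ratio nearest to 0, moved from -0.09 to -0.03 with the scaling and -0.05 with the centring. Shifts of this size were too small to change a sign, so the kept signs lend no support to any difference. These alternatives reuse the same libraries. The ratio of MOS ranged from 0.04 to 0.11 and that of CCNB2 from 0.27 to 0.65. CDC25B, below 1 FPKM, ranged from 0.11 with a pseudocount of 5 FPKM to 1.74 with 0.1 FPKM. The median of the 6 genes, -0.017 as reported, was -0.011 with a pseudocount of 5 FPKM, -0.031 on the TPM scale, 0.039 after scaling outside mitochondrial and ribosomal RNA genes and 0.020 after centring. The 219 genes beyond 2-fold became 406 and 38 with pseudocounts of 0.1 and 5 FPKM, and 369 on the TPM scale. That scale raises all values, so that the 1 added counts for less, much as a smaller pseudocount does. The count was 384 with no filter, 24 at a minimum mean of 10 FPKM and 580 by the 1.5-fold rule. In the role lists, FBXO5 and YWHAQ made a count of 2 beyond the fold with a pseudocount of 0.1 FPKM, on the TPM scale and by the 1.5-fold rule, and CDK2 made a count of 1 with no filter. With 1 library per group and unknown depth, no value below 1 FPKM can be given an error.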
